A study of Mus musculus with 22 samples.

Results

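The Ighv1 family, also called J558, was described in the Igh repertoires of kidney B cells. Its members were the V segments whose name, taken as the first name given by the annotation, begins with Ighv1- once the allele is dropped, so that the segment named Ighv1S22 and the families Ighv10 to Ighv15 were left out. The rule found 43 of the 80 V segments in the data, with 1697 of 17178 sequences (9.88%), 9912 of 123192 reads (8.05%) and 1211 of 6754 clonotypes (17.9%). The family was therefore represented by fewer sequences per clonotype than the rest of the repertoire. A sequence is one retained Igh entry of one library, after reads had been grouped by the study, and a clonotype is a set of sequences of one library with the same V segment, J segment and junction nucleotides. Of the 43 members, 18 had at least 10 sequences and 25 had fewer, and the 10 with the highest mean share held 1379 sequences (81.3% of the family). All 43 names were found in the GENCODE vM21 annotation of GRCm38, 41 as functional V genes and 2, Ighv1-48 and Ighv1-17-1, as pseudogenes, and 12 annotated functional Ighv1 genes had no sequence.

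The mice were WT C57BL/6 females, 8 to 10 weeks old at inoculation, whose urinary bladders were inoculated repeatedly, with uropathogenic Escherichia coli (UPEC, 5 mice) or with PBS (6 mice). After 56 days, kidney B cells were sorted into an intravascular fraction, labelled by an anti-CD45 antibody given intravenously before death, and an extravascular fraction that the antibody had not reached. Each mouse gave 1 library of each fraction, 22 libraries in all, and the study asked whether the challenge changed the kidney repertoire. The organs were not perfused, the label alone separates the compartments, all groups share strain, sex and genotype, and the sorted fractions can hold several kinds of B cell.

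An Igh variable region is assembled from a V, a D and a J segment, and the stretch across the joints, the CDR3, is its most variable part. The enzyme TdT adds N nucleotides at these joints in adult precursors and is scarcely active in fetal ones, so that junctions with few or no N nucleotides are typical of B-1 cells of early origin. Ighv1 is the largest V family of the mouse and lies in the part of the heavy chain locus far from the D segments, interspersed with smaller families. Follicular B-2 cells use it widely, whereas the B-1a cells that bind phosphatidylcholine use Ighv11-2 and Ighv12-3. Antigen-experienced B cells replace Ighm and Ighd by Ighg or Igha constant regions and acquire mutations in the V region.

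The libraries differed in depth, with 750 to 2134 sequences in PBS extravascular, 344 to 611 in PBS intravascular, 244 to 1102 in UPEC extravascular and 347 to 938 in UPEC intravascular libraries. Each library held between 28 and 206 Ighv1 sequences, which limits the precision of every value below. The extravascular library of UPEC mouse 1 stood apart, since it was the smallest with 244 sequences, held the highest Ighv1 share and the lowest share of Ighv3 (13.1%), and contained no Ighv1 sequence with a short V region. Differences that it moves strongly are also given without it. The share of Ighv11-2 and Ighv12-3 together was 25.5% ± 14.9 (SD, n = 6) in PBS extravascular and 4.68% in PBS intravascular libraries, and each of the 6 PBS mice had the higher share outside the vessels (p = 0.03125, exact signed-rank test). After UPEC the means were 26.3% and 9.91%, higher in 4 of 5 mice. Shares of sequences sum to 100% within a library, so an Ighv1 share moves with the share of these segments. Without their sequences, the difference of the Ighv1 sequence share between PBS compartments given below, -1.58 percentage points, was 0.879.

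Counted by sequence, the mean share of the family in PBS mice differed between compartments by less than the spread between mice. In PBS mice 1 to 6, Ighv1 made up 1.73%, 14.3%, 11.3%, 10.2%, 8.93% and 5.66% of extravascular sequences and 12.4%, 6.98%, 8.03%, 13.8%, 12.2% and 8.18% of intravascular sequences. The compartments overlapped, and the order was extravascular above intravascular in mice 2 and 3 and the reverse in the other mice. The means were 8.69% ± 4.43 and 10.3% ± 2.86 (SD, n = 6), and the extravascular minus the intravascular mean was -1.58 percentage points (p = 0.688, exact two-sided signed-rank test).

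After UPEC, the extravascular libraries were spread more widely than any other group. In UPEC mice 1 to 5 the extravascular shares were 37.3%, 8.60%, 5.54%, 7.40% and 24.1%, and the intravascular shares were 11.7%, 8.07%, 10.9%, 10.6% and 10.9%. UPEC mice 1 and 5 lay above all PBS extravascular libraries and the other 3 lay within their range. For UPEC mouse 1 the share rests on 91 of 244 sequences (95% Wilson interval 31.5% to 43.5%, counting error only). The mean difference between compartments was 6.17 percentage points (exact signed-rank test, p = 0.625, n = 5), and 1.32 without mouse 1. Extravascular UPEC and PBS libraries differed by 7.89 percentage points (exact Mann-Whitney U test, p = 0.792), and by 2.72 without UPEC mouse 1. Intravascular libraries differed by 0.144 percentage points (exact Mann-Whitney U test, p = 0.931). The gap between compartments changed by 7.75 percentage points with UPEC, which did not exceed the spread between mice (exact permutation test over mice, p = 0.238), and by 2.89 without mouse 1.

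**Figure D1:**
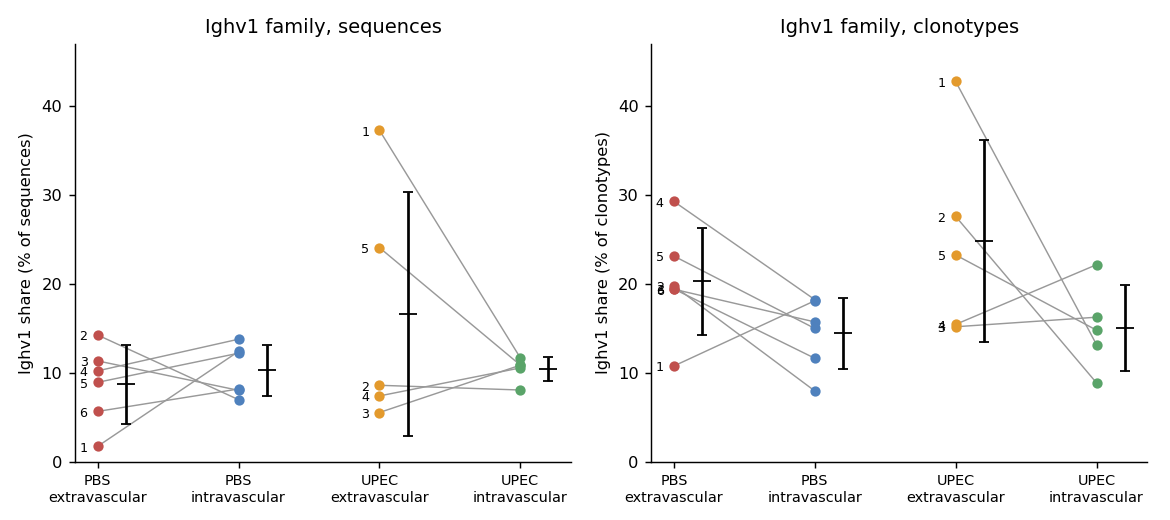
Share of Ighv1 in each library, as % of sequences (left) and % of clonotypes (right), with lines joining the libraries of one mouse, mouse numbers beside the extravascular points, and bars for mean ± SD (n = 6 PBS, n = 5 UPEC). Extravascular points of UPEC mice 1 and 5 lie above all others on the left, and on the right 5 of 6 PBS lines fall from extravascular to intravascular.

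Counting each clonotype once, the family was a larger part of the extravascular repertoire in most mice. In PBS mice 1 to 6, Ighv1 made up 10.8%, 19.8%, 19.4%, 29.3%, 23.1% and 19.4% of extravascular clonotypes, against 18.1%, 7.96%, 11.6%, 18.2%, 15.0% and 15.7% of intravascular clonotypes. Mouse 1, which had the lowest Ighv1 share by sequence, was the exception. The means were 20.3% ± 6.02 and 14.4% ± 3.99 (SD, n = 6), a difference of 5.86 percentage points (exact signed-rank test, p = 0.0938, adjusted p = 0.375 over the 8 measures of this comparison). After UPEC the means were 24.9% ± 11.3 and 15.1% ± 4.84 (SD, n = 5), higher in 3 of 5 mice (p = 0.312, exact signed-rank test), and without mouse 1 the difference went from 9.80 to 4.85 percentage points. Between UPEC and PBS extravascular libraries the difference went from 4.55 to 0.0713 percentage points without UPEC mouse 1.

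This measure depended on how clonotypes were counted. Joining clonotypes of one V and J whose junctions differ by 1 nt, an alternative chosen after seeing the data, left 5590 clonotypes in all, of which 1167 were Ighv1 (20.9%). The Ighv1 share of joined clonotypes was 30.4% ± 4.74 (SD, n = 6) in PBS extravascular and 15.2% ± 4.39 in PBS intravascular libraries. All 6 mice had the same order, and the lowest extravascular value, 27.2%, lay above the highest intravascular one, 19.1% (p = 0.03125 by the exact signed-rank test, the smallest that 6 pairs allow). After UPEC the joined shares were 29.3% ± 11.8 and 16.2% ± 6.40 (SD, n = 5), higher in 4 of 5 mice (p = 0.312, exact signed-rank test, where 5 pairs allow no p below 0.0625). Without mouse 1 this difference went from 13.1 to 8.93 percentage points.

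Most Ighv1 clonotypes were single sequences, 1118 of 1211 (92.3%), and the expanded ones were all extravascular. Clonotypes of at least 20 sequences numbered 4 in PBS extravascular libraries (229 sequences) and 3 in UPEC extravascular libraries (110 sequences), with none in either set of intravascular libraries, where the largest held 5 sequences. They came from 3 mice, PBS mice 2 and 3 and UPEC mouse 5. The intravascular libraries were shallower in all but UPEC mice 1 and 4, and no test was made of this count, since the size limit was chosen with the values known. Among all clonotypes of their library, the 7 ranked 5 (PBS mouse 2), 8, 11 and 13 (PBS mouse 3) and 2, 6 and 7 (UPEC mouse 5). Larger clonotypes of other V segments were thus in the same libraries, and their spread over compartments was not counted here. Ighv1 had fewer sequences per clonotype than other V segments in 21 of 22 libraries. The junctions of these 7 clonotypes and of the next largest are shown because they hold most of the Ighv1 sequences of PBS mice 2 and 3 outside the vessels and most of the Igha sequences described below. They run from the conserved cysteine codon to the conserved tryptophan codon, with N nucleotides in capitals.
PBS mouse 2, Ighv1-53 with Ighj2: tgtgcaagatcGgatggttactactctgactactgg
PBS mouse 3, Ighv1-5 with Ighj3: tgtacggtacCCCttgcttactgg
PBS mouse 3, Ighv1-72 with Ighj3: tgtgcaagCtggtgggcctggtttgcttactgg
PBS mouse 3, Ighv1-55 with Ighj3: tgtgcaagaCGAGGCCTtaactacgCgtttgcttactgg
UPEC mouse 5, Ighv1-58 with Ighj2: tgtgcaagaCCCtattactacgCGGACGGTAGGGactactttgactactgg
UPEC mouse 5, Ighv1-64 with Ighj2: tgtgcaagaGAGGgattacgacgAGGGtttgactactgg
UPEC mouse 5, Ighv1-61 with Ighj4: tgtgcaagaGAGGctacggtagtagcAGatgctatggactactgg
UPEC mouse 5, Ighv1-69 with Ighj4: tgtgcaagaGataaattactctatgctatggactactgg

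The largest was the Ighv1-53 clonotype of PBS mouse 2. It held 108 sequences and 1460 reads, which was 53.2% of the Ighv1 sequences and 7.58% of all sequences of that library, where it ranked 5. Its junction has 1 N nucleotide and encodes a CDR3 of 10 amino acids. Of its 108 sequences, 101 were Igha, 6 Ighg and 1 Ighm. Here and below, Igha is named in the files, whereas Ighm, Ighd and Ighg rest on an assumed alphabetical order of the other isotype numbers. A total of 11 Ighv1-53 clonotypes of this library were Igha, and they became 1 when junctions 1 nt apart were joined. In PBS mouse 3, by contrast, the 3 expanded clonotypes were Ighm in every sequence, with 50 (Ighv1-5), 40 (Ighv1-72, the segment of the classical C57BL/6 response to the hapten NP) and 31 (Ighv1-55) sequences. Their CDR3s had 6, 9 and 11 amino acids and 3, 1 and 9 N nucleotides.

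In UPEC mouse 5, the 3 expanded clonotypes were mostly or entirely Igha. The Ighv1-58 clonotype had 49 sequences, 37 Igha and 12 Ighg, and a CDR3 of 15 amino acids with 15 N nucleotides. The Ighv1-64 clonotype had 35 sequences and the Ighv1-61 clonotype 26, all Igha, and an Ighv1-69 clonotype of 16 sequences followed with 15 Igha and 1 Ighg. The high Ighv1 share of UPEC mouse 1 was of another kind, since its largest Ighv1 clonotype had 2 sequences and 94.2% of its Ighv1 clonotypes had 1.

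Sequences of one clonotype are not independent cells. When each sequence was joined to a more read one that differed by 1 nt, the 108 sequences became 10, the 50 of Ighv1-5 became 10 and the 49 of Ighv1-58 became 10, and the family went from 1697 to 1373 sequences. How many of the differences of 1 nt arose in the cells was not tested.

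**Figure D2:**
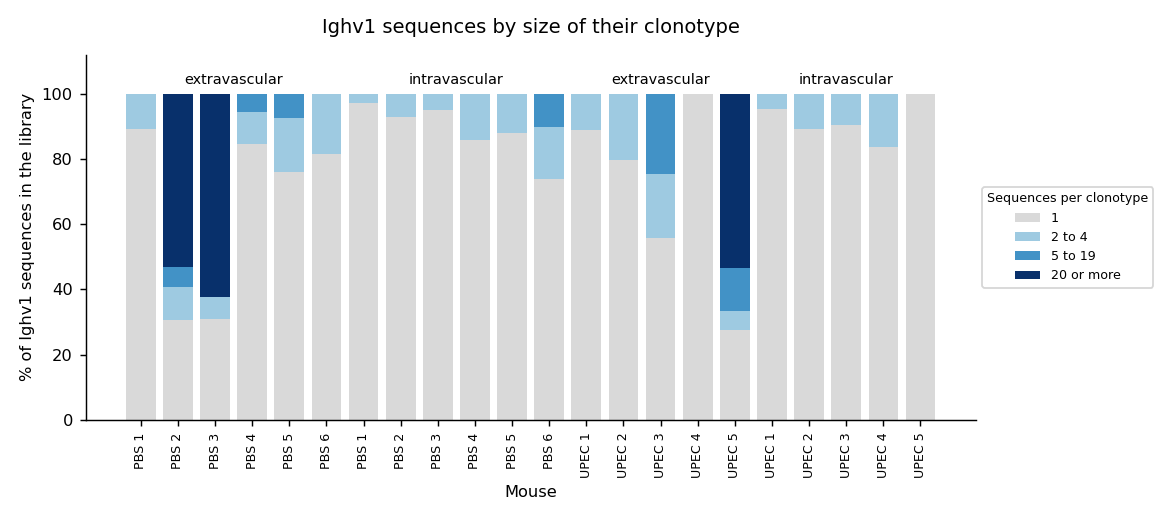
Share of the Ighv1 sequences of each library that belong to clonotypes of 1, 2 to 4, 5 to 19 and 20 or more sequences. The darkest class is present in the extravascular libraries of PBS mice 2 and 3 and UPEC mouse 5 and in no intravascular library.

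The most read V regions of the 8 clonotypes shown had 0 to 5 mismatches to the germline, and 3 are given to show this range. Each is the most read sequence of its clonotype, from the first base after the primer to the conserved cysteine, with bases that differ from the GRCm38 germline segment of the same name in capitals.
Ighv1-53, PBS mouse 2, Igha: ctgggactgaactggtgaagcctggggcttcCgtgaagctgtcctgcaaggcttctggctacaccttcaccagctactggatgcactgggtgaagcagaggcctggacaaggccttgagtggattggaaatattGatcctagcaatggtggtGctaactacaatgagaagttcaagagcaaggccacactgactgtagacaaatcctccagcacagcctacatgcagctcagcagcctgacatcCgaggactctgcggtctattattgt
Ighv1-69, UPEC mouse 5, Igha: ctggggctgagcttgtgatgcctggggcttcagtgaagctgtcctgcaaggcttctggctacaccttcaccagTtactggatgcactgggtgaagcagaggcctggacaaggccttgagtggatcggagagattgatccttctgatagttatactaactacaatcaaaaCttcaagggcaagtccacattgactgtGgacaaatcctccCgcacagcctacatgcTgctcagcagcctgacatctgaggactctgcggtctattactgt
Ighv1-58, UPEC mouse 5, Igha: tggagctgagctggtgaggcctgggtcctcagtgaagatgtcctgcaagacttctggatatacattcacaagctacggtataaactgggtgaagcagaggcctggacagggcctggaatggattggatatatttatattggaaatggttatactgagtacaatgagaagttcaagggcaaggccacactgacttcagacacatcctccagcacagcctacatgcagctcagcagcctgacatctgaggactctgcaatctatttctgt

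The germline stretches of these segments lie on the minus strand of chromosome 12 of GRCm38, at chr12:115158409-115158677 for Ighv1-53, chr12:115623167-115623435 for Ighv1-69 and chr12:115312172-115312440 for Ighv1-58, within the V coding exon of each gene. The most read sequence of the Ighv1-53 clonotype had 4 mismatches in 269 nt, 2 of them in CDR1 or CDR2. The same 4 mismatches were carried by 20 sequences of 9 clonotypes in this library. That of Ighv1-69 had 5 mismatches, that of Ighv1-64 had 2 and that of the Ighm clonotype of Ighv1-55 in PBS mouse 3 had 3. The most read sequences of the Ighv1-58, Ighv1-61, Ighv1-72 and Ighv1-5 clonotypes had 0. The most read Ighv1-58 and Ighv1-61 sequences were thus Igha with no mismatch, while the most read Ighv1-55 sequence was Ighm with 3. Over all sequences, each of the 4 clonotypes whose most read sequence had 0 had a median of 1 mismatch, and Ighv1-5 reached 10. A germline difference between these mice and the reference would count as a mismatch.

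The members differed in how they were spread over compartments. The most used were Ighv1-53 (262 sequences), Ighv1-58 (234), Ighv1-48 (208), Ighv1-55 (138), Ighv1-72 (120), Ighv1-15 (119) and Ighv1-64 (118). Of the 43 members, 22 were present in all 4 groups. Shares of segments were tested with limma on log2 shares over all V segments for which 3 or more of the libraries compared held 10 or more sequences, which admitted 3 of the 43 members in the comparison of PBS compartments, 3 after UPEC, 4 between extravascular groups and 2 between intravascular groups. The rest were too rare to test and are given by their values.

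Ighv1-58 was lower in the extravascular compartment of every PBS mouse. In PBS mice 1 to 6 it took 0%, 1.47%, 0.409%, 0.674%, 0.267% and 0.348% of extravascular and 0.345%, 1.75%, 1.61%, 3.28%, 3.78% and 1.47% of intravascular sequences. The compartments overlapped across mice, through mouse 2 on the one side and mouse 1 on the other, but each mouse had the same order. The 0 of mouse 1 was 0 of 2134 sequences, which allows a share of up to 0.141%. The log2 difference of shares was -2.11 (standard error 0.60, limma with mouse as a block, adjusted p = 0.0421). Ighv1-58 was the only one of the 3 members tested to be called, against 6 of 17 V segments in all (35.3%), of which the median log2 difference was -1.20 and 14 were negative. With only sequences of at least 100 nt of V region, Ighv1-58 did not pass the filter and 1 of 14 V segments was called (7.14%). Measured against the median segment, the log2 difference of Ighv1-58 was -0.96 (limma adjusted p = 0.303), and with each clonotype counted once it was -1.26 (limma adjusted p = 0.0858). Without the filter on rare segments the log2 difference was again -2.11 (limma adjusted p = 0.0620). The call was also lost without PBS mouse 1, 3, 4 or 5 (limma adjusted p = 0.0515, 0.136, 0.122 and 0.0731), and with one mouse left out 0 to 5 V segments were called.

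After UPEC, Ighv1-58 took 0.410%, 0.292%, 1.36%, 0.404% and 8.54% of extravascular and 2.79%, 2.59%, 2.24%, 0.746% and 1.86% of intravascular sequences in mice 1 to 5. Mice 1 to 4 had the order of the PBS mice, and mouse 5, with the expanded clonotype shown above, had the reverse. The log2 difference was -0.94 (standard error 0.95, limma adjusted p = 0.632).

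Ighv1-53 leaned the other way, and the strength of the difference depended on counting and centring. Its extravascular shares in PBS mice 1 to 6 were 0.281%, 8.29%, 0.585%, 2.13%, 1.60% and 0.958%, and its intravascular shares were 2.24%, 0.249%, 0.602%, 0.438%, 0.291% and 0.655%. Mice 2, 4, 5 and 6 were higher in the extravascular compartment. The log2 difference of sequence shares was 1.15 (standard error 0.88, limma adjusted p = 0.288), and 0.42 without mouse 2. Measured against the median segment it was 2.29 (limma adjusted p = 0.0441), where 3 of 17 V segments were called (17.6%). By clonotype the share was 3.46% ± 1.59 (SD, n = 6) against 1.13% ± 1.04, higher in 5 of 6 mice, with a log2 difference of 1.73 (standard error 0.60, limma adjusted p = 0.0317), where 5 of 17 V segments were called (29.4%). In PBS mouse 2 its 2.94% held the 11 Igha clonotypes with junctions 1 nt apart, which were joined to 1 clonotype (0.426%). Over joined clonotypes the share was 4.81% ± 2.67 against 1.2% ± 1.12 (SD, n = 6), higher in 6 of 6 mice, with no test. After UPEC the extravascular shares of sequences were 5.33%, 1.60%, 0.272%, 0.942% and 0.351% and the intravascular ones 0.279%, 1.44%, 0.517%, 1.28% and 1.06%, with a log2 difference of 0.30 (limma adjusted p = 0.827), and -0.62 without mouse 1.

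Ighv1-15 was lower in the extravascular library of all 11 mice when sequences were counted. Its mean shares were 0.423% ± 0.401 and 1.28% ± 0.653 in PBS mice (SD, n = 6) and 0.514% ± 0.342 and 1.32% ± 0.706 in UPEC mice (SD, n = 5). In some mice the order rests on few sequences, with 2 of 1148 against 2 of 611 in PBS mouse 6 and 1 of 686 against 2 of 347 in UPEC mouse 2. Of the 17 V segments that passed the filter, 14 were negative in PBS mice (median log2 difference -1.20) and 12 in UPEC mice (median -0.59). Counted by clonotype, Ighv1-15 was lower in 4 of 6 PBS and 4 of 5 UPEC mice. It had too few sequences for the filter, and without the filter the log2 differences were -1.61 in PBS mice (limma adjusted p = 0.0716) and -1.30 in UPEC mice (limma adjusted p = 0.519). Without the filter no segment was called in PBS mice, and Ighv1-75 (30 sequences, 28 of them short), named after its values were seen, had a log2 difference of -2.01 (limma adjusted p = 0.0620), lower in 5 of 6 PBS mice and higher in 0. In UPEC mice its log2 difference was 0.37, lower in 0 and higher in 3 of 5 mice. Ighv1-72 showed no common order by sequence, with 3 of 6 PBS mice higher in the extravascular library, the highest of them mouse 3 (2.69%). Counted by clonotype it was higher there in 6 of 6 PBS mice, 1.81% ± 1.15 against 0.829% ± 0.678 (SD, n = 6), and in 3 of 5 UPEC mice.

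The 91 Ighv1 sequences of UPEC mouse 1 outside the vessels were spread over many members, of which Ighv1-55 (21 sequences), Ighv1-64 (14) and Ighv1-53 (13) were the most used. Ighv1-55 made up 8.61% (95% Wilson interval 5.70% to 12.8%) and Ighv1-64 5.74% (3.45% to 9.40%) of all sequences of that library. Over the PBS extravascular libraries, Ighv1-55 ranged from 0.133% to 2.34% and Ighv1-64 from 0.141% to 0.667%. Ighv1-64 also reached 4.44% in UPEC mouse 5, through the Igha clonotype shown above. Ighv1-64 was too rare for the filter, without which its log2 difference between UPEC and PBS extravascular libraries was 1.71 (limma adjusted p = 0.718, unadjusted p = 0.0490). Ighv1-55 was tested, and its log2 difference between UPEC and PBS extravascular libraries was 1.25 (standard error 0.98, limma adjusted p = 0.689), and 0.52 without UPEC mouse 1. The other members tested there were Ighv1-58 (1.35), Ighv1-53 (-0.41) and Ighv1-48 (-0.92), each with an adjusted p of at least 0.689. The Ighv1-58 extravascular share was 8.54% in UPEC mouse 5, 0.292% to 1.36% in the other UPEC mice and 0% to 1.47% in PBS mice.

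Between UPEC and PBS no V segment was called in either compartment by limma, 0 of 17 (0%) extravascular and 0 of 14 (0%) intravascular, with 1 segment in each at an unadjusted p below 0.05. Between compartments after UPEC, 0 of 17 (0%) were called and 3 had an unadjusted p below 0.05. Counting each clonotype once, limma also called 0 in these 3 comparisons. In these groups of 5 and 6 mice a count of 0 does not show that shares were alike.

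**Figure D3:**
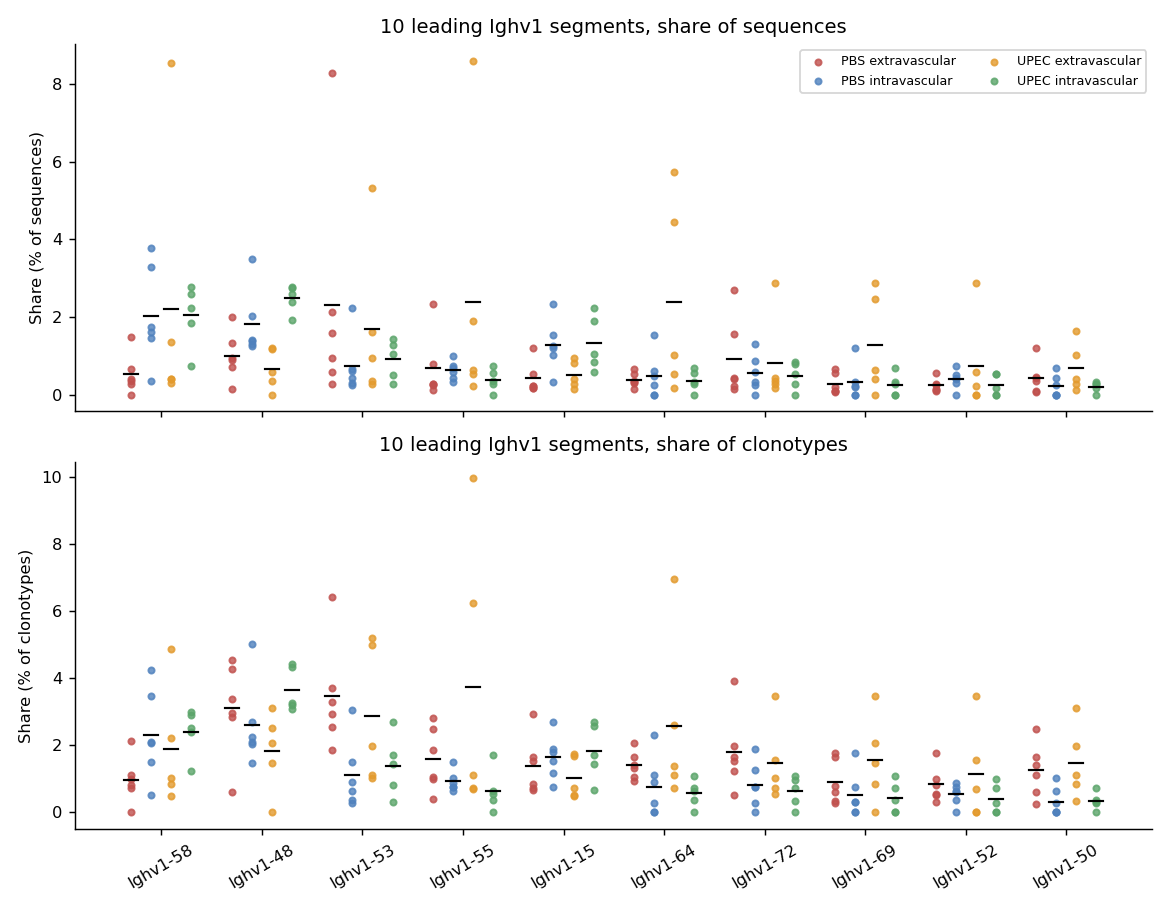
Share of the 10 Ighv1 segments with the highest mean share, as % of sequences (top) and % of clonotypes (bottom), with a point for each library and a bar at the group mean. For Ighv1-58 the PBS extravascular points lie mostly below the PBS intravascular ones, and single extravascular libraries lie far above the rest for Ighv1-53, Ighv1-58, Ighv1-55 and Ighv1-64.

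The members also differed in their junctions and isotypes, given here as pooled values over libraries with no test. The libraries differ in these means and in the share of each member, so the order of members is a description of the pool. Over sequences with at least 100 nt of V region, the mean CDR3 length per clonotype of the 9 leading members other than Ighv1-48 ran from 10.5 amino acids (Ighv1-72 and Ighv1-15) to 12.2 (Ighv1-58). The Ighd share of sequences was 0% for Ighv1-48 (0 of 208), 9.40% for Ighv1-58 and 10.1% for Ighv1-15, against 38.1% for Ighv1-64 and 43.8% for Ighv1-52. The 234 Ighv1-58 sequences include the 49 of the clonotype of UPEC mouse 5, none of them Ighd. These Ighd shares were not limited to V regions of at least 100 nt. All Ighv1-48 and 41 of the Ighv1-58 sequences were shorter. Ighd was also rare in Ighv1-75 (1 of 30 sequences) and Ighv1-63 (1 of 13), whose V regions were mostly short, so member and V length cannot be told apart here. Mean V mutation was 0.912% for Ighv1-53 and 0.558% for Ighv1-55, both with an expanded mutated clonotype, and 0.0641% for Ighv1-15.

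Most Igha sequences were Ighv1, and most of these came from 2 mice. Of 303 Igha sequences, 259 (85.5%) were Ighv1, and 240 of those 259 (92.7%) came from the extravascular libraries of PBS mouse 2 (111) and UPEC mouse 5 (129). In these libraries Igha made up 54.7% (95% Wilson interval 47.8% to 61.4%) and 62.6% of Ighv1 sequences. Without both libraries of these mice, 19 of 53 Igha sequences (35.8%) were Ighv1. No test was made, since the pattern was chosen with its values known.

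The share was lower by clonotype. Of 69 Igha clonotypes 44 were Ighv1, 40 of 49 in extravascular and 4 of 20 in intravascular libraries, and after joining junctions 1 nt apart 25 of 50 were Ighv1. By sequence, Ighv1 held 255 Igha sequences in extravascular libraries against 21 from all other V segments, and 4 against 23 in intravascular libraries. The largest Igha count outside Ighv1 was 11, in extravascular sequences of PBS mouse 4.

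The 2 Igha sets differed in mutation. In PBS mouse 2 all 111 used Ighv1-53, and they carried 4.84 ± 1.13 mismatches (SD over sequences) with no unmutated sequence. In UPEC mouse 5 they used 7 segments and 18 clonotypes, which became 9 when junctions 1 nt apart were joined, and the 125 with a value carried 1.94 ± 1.75 mismatches, 21 of them with none. Over the whole family the mean V mutation was 1.31% for Igha, 0.226% for Ighm and 0.0250% for Ighd, the field of naive B cells. Sequences of a clonotype share their mutations, so these spreads are not errors of a group mean.

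Ighg was rare, with 56 Ighv1 sequences in 34 clonotypes and 70 other sequences in 33 clonotypes. In extravascular libraries of UPEC mice 1 to 5 it made up 2.20%, 8.47%, 13.1%, 3.64% and 10.2% of Ighv1 sequences, and in those of PBS mice 1 to 6 it made up 0%, 2.96%, 0.515%, 1.10%, 0% and 1.54%. UPEC mice 2 to 5 lay above all PBS mice and UPEC mouse 1 lay below PBS mouse 2. Among the other V segments of the same UPEC libraries the share was 0% to 1.08%. The order was not the same everywhere, since in PBS mouse 6 outside the vessels Ighg made up 1.54% of Ighv1 and 2.59% of other sequences. Intravascular Ighv1 sequences reached 7.14% in PBS mouse 2, above UPEC mice 1 and 4 outside the vessels. These counts were 0 to 21 sequences per library and were looked at after other values were known, so no test is given. In the extravascular libraries of PBS mice 1 and 5, with no Ighg among 37 and 67 Ighv1 sequences, shares of up to 8.11% and 4.48% are allowed.

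**Figure D4:**
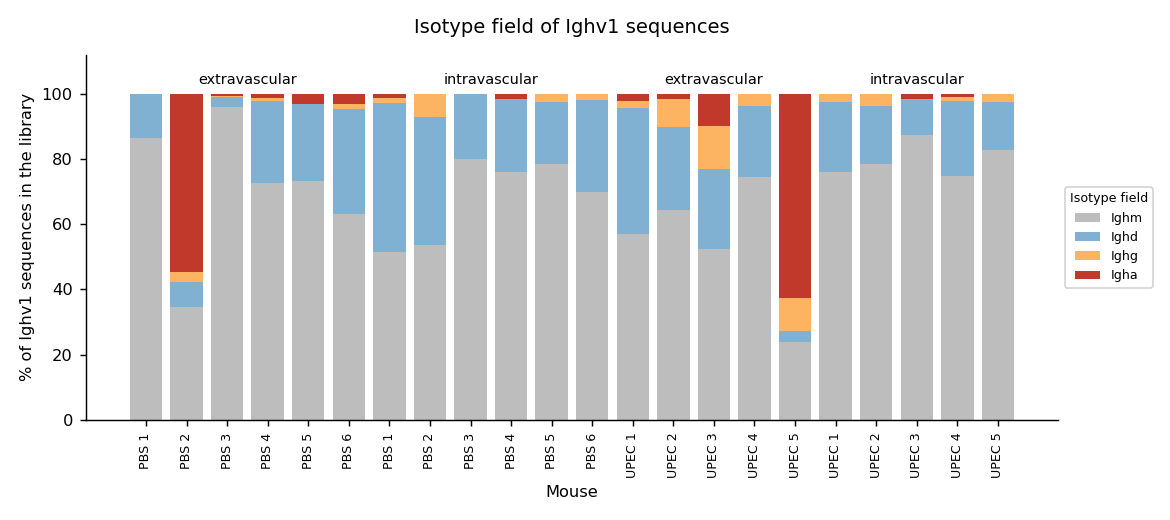
Isotype field of the Ighv1 sequences of each library, as % of sequences. Igha exceeds 50% in the extravascular libraries of PBS mouse 2 and UPEC mouse 5 and stays below 10% in the others, and Ighg is visible in all 5 UPEC extravascular libraries.

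The Ighd share of unique Ighv1 regions ranged from 3.23% to 33.3% (median 19.4%) in PBS extravascular and from 19.5% to 45.8% in PBS intravascular libraries. The ranges overlapped, with means of 18.3% ± 11.7 and 29.1% ± 11.02 (SD, n = 6, exact signed-rank test, p = 0.438). In UPEC mice the means were 23.3% ± 12.9 and 17.7% ± 5.00 (SD, n = 5), and the difference was 2.49 percentage points without mouse 1. Between intravascular libraries the UPEC mean was 11.4 percentage points below the PBS mean (exact Mann-Whitney U test, p = 0.0823, adjusted p = 0.658).

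Ighv1 CDR3s of extravascular clonotypes tended to be shorter in PBS mice without passing the threshold. Mean length in PBS mice 1 to 6 was 11.4, 12.1, 11.3, 11.8, 11.8 and 11.2 amino acids in extravascular and 11.4, 12.2, 12.9, 12.02, 11.8 and 13.1 in intravascular clonotypes. Mice 3 and 6 had the widest gap and mouse 1 a gap close to 0. Extravascular minus intravascular length was -0.66 amino acids (p = 0.0625 by the exact signed-rank test, adjusted p = 0.375), and 5 of 6 mice had the shorter mean outside the vessels. Among sequences with at least 100 nt of V region, which leaves out Ighv1-48, it was -0.355 (p = 0.844, exact signed-rank test). In UPEC mice the means were 11.97 ± 0.892 and 12.4 ± 0.400 amino acids (SD, n = 5, exact signed-rank test, p = 0.625), and without mouse 1 the difference went from -0.433 to -0.0949. Counted by sequence, mean length was 11.1 amino acids in extravascular and 12.2 in intravascular PBS libraries, and 12.1 and 12.4 in UPEC libraries.

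N additions of Ighv1 clonotypes were 5.70 ± 0.608 nt in PBS extravascular and 6.16 ± 0.628 nt in PBS intravascular libraries (SD, n = 6, exact signed-rank test, p = 0.312). The difference was -0.464 nt, and -0.693 to -0.224 nt with a mouse left out. The UPEC means were 6.27 ± 0.940 and 6.32 ± 0.678 nt (SD, n = 5). Without UPEC mouse 1 the UPEC difference went from -0.0528 to 0.387 nt, and its sign turned for 3 of the 5 mice left out. Clonotypes without N additions made up 7.64% and 4.44% of Ighv1 clonotypes in PBS mice and 5.07% and 2.30% in UPEC mice, with a highest value of 17.6% in PBS mouse 1, outside the vessels. Without PBS mouse 1 the PBS difference of this share went from 3.20 to 0.594 percentage points. None of these differences per clonotype exceeded the spread between mice. Counted by sequence, mean N additions were 4.97 nt in extravascular and 6.13 nt in intravascular PBS libraries, and 6.76 and 6.26 nt in UPEC libraries. By sequence, UPEC and PBS extravascular libraries differed at an unadjusted p below 0.05 (exact Mann-Whitney U test), as given under the processing below.

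Diversity was measured as the number of distinct Ighv1 clonotypes expected in 28 Ighv1 sequences, the number in the smallest set. It was 26.9, 13.3, 13.4, 26.8, 25.3 and 26.9 in the extravascular libraries of PBS mice 1 to 6, and 25.0 to 27.9 in the intravascular ones. The values of mice 2 and 3, with the expanded clonotypes, stood below all others in PBS mice. The means were 22.1 ± 6.79 and 26.8 ± 1.02 (SD, n = 6, exact signed-rank test, p = 0.219). After UPEC they were 23.5 ± 5.98 and 27.2 ± 0.751 (SD, n = 5), with the lowest, 13.9, in mouse 5. Without UPEC mouse 5 the UPEC difference went from -3.74 to -1.15. Once sequences 1 nt from a more read one were joined, extravascular minus intravascular was -1.07 in PBS and -2.11 in UPEC mice.

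V mutation averaged 0.414% ± 0.446 in PBS extravascular and 0.0853% ± 0.108 in PBS intravascular Ighv1 sequences (SD, n = 6), higher in 5 of 6 mice (p = 0.156, exact signed-rank test, adjusted p = 0.417). Without PBS mouse 2, which holds the mutated Ighv1-53 clonotype, the difference went from 0.328 to 0.163 percentage points. The UPEC means were 0.261% ± 0.232 and 0.143% ± 0.2002 (SD, n = 5). Over the 8 measures, adjusted p-values were at least 0.375 between PBS compartments and 0.812 between UPEC compartments, and at least 0.792 and 0.658 between UPEC and PBS in the extravascular and the intravascular libraries. With 5 pairs no p below 0.0625 is possible, and 6 mice against 5 allow 0.004329.

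Within libraries, Ighv1 clonotypes joined Ighj1 less often than clonotypes of other V segments in 22 of 22 libraries. The share of Ighj1 was 13.2% ± 4.22 of Ighv1 and 32.4% ± 10.9 of other clonotypes in PBS extravascular libraries, and 15.7% ± 3.37 against 23.6% ± 2.83 in PBS intravascular libraries (SD, n = 6, exact signed-rank tests, p = 0.03125 each, adjusted p = 0.075 and 0.0938 over 12 measures). In UPEC libraries it was 14.1% against 31.3% and 11.4% against 23.4%. Ighj2 was higher in Ighv1 in 18 of 22 libraries. When Ighv11-2 and Ighv12-3 were left out of the other segments, Ighj1 was still lower in 20 of 22 libraries, but the PBS extravascular difference went from -19.2 to -5.17 percentage points (exact signed-rank test, p = 0.312).

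A larger part of the unique regions had Ighd reads in Ighv1 than in other V segments. The Ighd share was 18.3% against 3.35% in PBS extravascular and 29.1% against 16.1% in PBS intravascular libraries (exact signed-rank tests, n = 6, p = 0.03125 each). In UPEC libraries it was 23.3% against 10.9% and 17.7% against 13.4%. Each unique region counts once, so a clonotype with many regions weighs more. It was higher in all PBS libraries, in 4 of 5 UPEC extravascular and in 3 of 5 UPEC intravascular libraries. In PBS mice, among sequences with at least 100 nt of V region it was 22.7% against 3.47% and 42.2% against 17.7%, so that the PBS intravascular difference went from 13.0 to 24.5 percentage points. Ighv1 also had fewer sequences per clonotype in 21 of 22 libraries, 1.67 against 4.79 in PBS extravascular libraries. No measure of the 12 had an adjusted p below 0.05 in any group.

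N additions and CDR3 length depended on which sequences were counted. Ighv1 clonotypes had more N nucleotides than the others in 19 of 22 libraries, but in 12 of 22 among sequences with at least 100 nt of V region. Mean CDR3 length was higher in Ighv1 in 12 of 22 libraries, and in 3 of 22 with that limit. In PBS extravascular libraries the difference with the limit was -0.701 amino acids (exact signed-rank test, p = 0.03125). This limit was chosen after seeing the data.

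**Figure D5:**
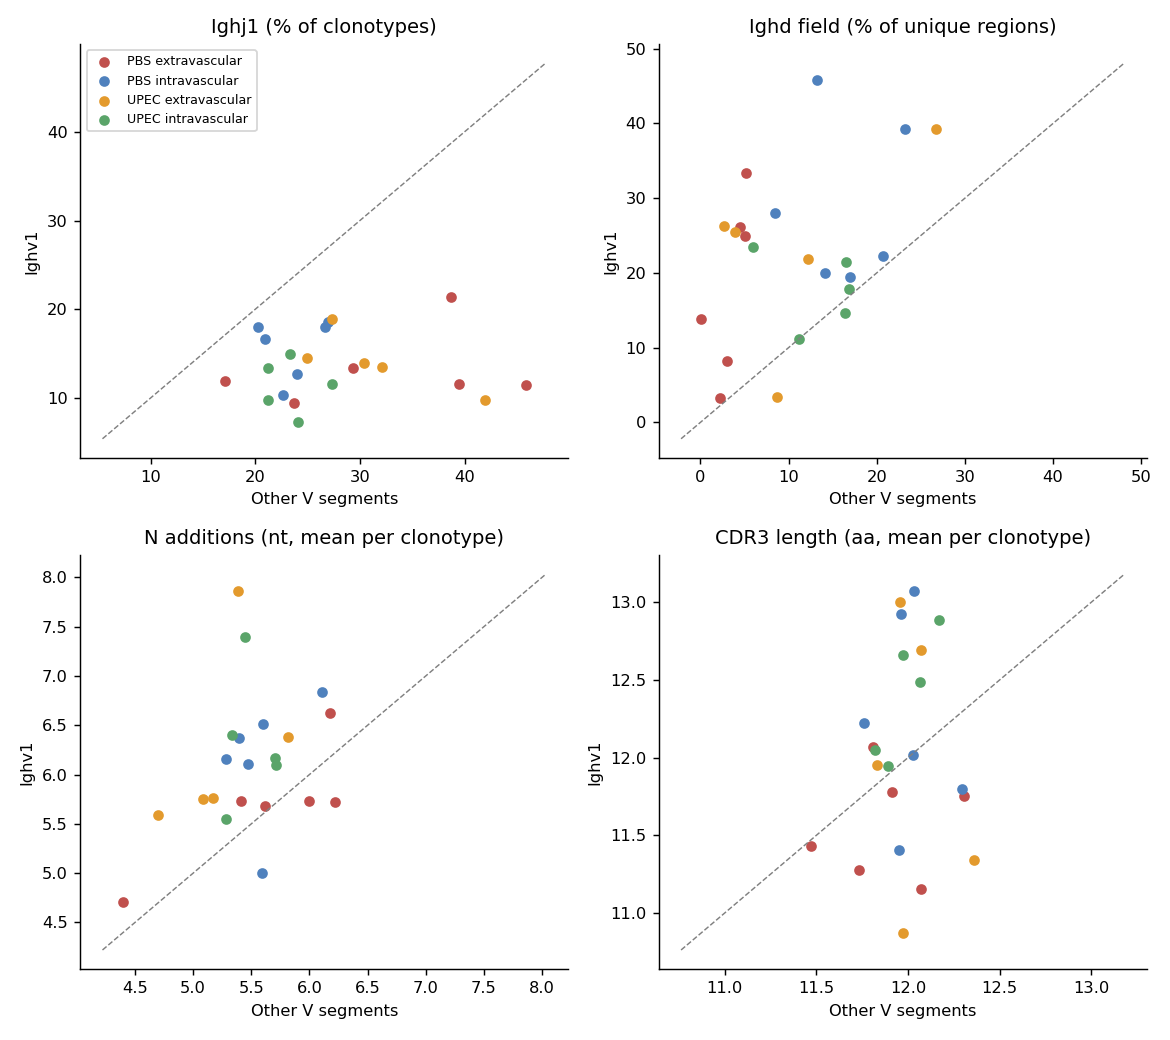
Ighv1 (vertical axis) against all other V segments (horizontal axis) of the same library for Ighj1 (% of clonotypes), Ighd (% of unique regions), N additions (nt) and CDR3 length (amino acids), with a point for each library and a dashed line of equality. All 22 points lie below the line for Ighj1 and 19 lie above it for Ighd.

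The name of the V segment was less certain in this family than elsewhere, and the uncertain sequences were not evenly spread. The name was ambiguous for 286 Ighv1 sequences (16.9%) against 1.84% of others, and the V region was shorter than 100 nt in 340 (20.0%) against 6.11%. Short V regions made up 16.2% ± 7.68 of Ighv1 sequences in PBS extravascular and 32.1% ± 10.9 in PBS intravascular libraries, lower in 6 of 6 mice (SD, p = 0.03125, exact signed-rank test). After UPEC the means were 14.4% and 34.9%, lower in 4 of 5 mice.

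All 208 Ighv1-48 sequences were short and had an ambiguous name, and 41 of 234 sequences of Ighv1-58 were short. The leading short stretches of Ighv1-48, of the left-out Ighv1S22 and of Ighv1-58 are shown because they show what the names rest on. Capitals mark the first bases, which match no GRCm38 V segment together with the rest.
Ighv1-48, 93 sequences: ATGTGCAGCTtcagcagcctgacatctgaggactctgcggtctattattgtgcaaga
Ighv1S22, 201 sequences: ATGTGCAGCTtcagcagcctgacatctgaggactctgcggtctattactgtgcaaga
Ighv1-58, 20 sequences: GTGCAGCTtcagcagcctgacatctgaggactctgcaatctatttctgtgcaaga

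The 47 nt in lower case of the Ighv1-48 stretch are those of Ighv1-53, Ighv1-62 and Ighv1-72, and those of the Ighv1S22 stretch are shared by 8 Ighv1 segments. In the Ighv1-58 stretch they are found in Ighv1-58 alone. The 13 bases gtgcagcttcagc lay at or near the start of 763 of 1286 short sequences, 290 of 340 of Ighv1, and were in 0 V exons of GRCm38 and in 0 sequences with a longer V region. An Ighv1-48 share may therefore be that of a group of segments. Its log2 difference between compartments was -1.01 in PBS (limma adjusted p = 0.176) and -2.29 in UPEC mice (limma adjusted p = 0.158), lower in 5 of 5 UPEC mice. In PBS mice its sign turned when each clonotype was counted once (0.15), with reads as weights (0.20) and when measured against the median segment (0.13). Ighv1-48 clonotypes had a mean CDR3 of 14.4 amino acids, above every other leading member. Rarer members with mostly short V regions had similar means, 14.2 for Ighv1-75 (28 of 30 sequences short) and 14.3 for Ighv1-63 (12 of 13). The length of Ighv1-48 therefore cannot be told apart from that of short V regions.

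Ighv1 clonotypes were rarely found more than once. Of 1210 Ighv1 clonotypes of single mice, 1 was in both compartments of its mouse, against 74 of 5469 of other V segments. Of 1180 junctions of Ighv1 segments, 1 was found with an Ighv1 segment in 2 mice, against 49 of 5294 among the others. Whatever the V name in the other mouse, 4 Ighv1 junctions were found in more than 1 mouse, against 51 of the others. The junction with an Ighv1 name in both was the one of the expanded Ighv1-72 clonotype of PBS mouse 3, shown above, which was also in PBS mouse 4. The depth of the libraries limits these counts.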

How the data were processed

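Igh transcripts of sorted kidney B cells were sequenced in 22 libraries of 11 mice (6 PBS, 5 UPEC), and the experiment was done once. The study's methods describe paired reads of an Illumina MiSeq, filtered by quality with QUASR, merged on identical overlaps, grouped by the barcode of the reverse transcription primer into consensus sequences, trimmed of primers and constant regions, kept when similar to reference Ighv and Ighj genes and when seen in more than 1 read, and annotated with IMGT/V-QUEST. What the authors deposited is of another kind than a count table: each entry of a library's file is one sequence, with its V, D and J names, region sequences, N additions and mutations as the authors' annotation gave them. The genome build was not given in the sources used here, and the V segments were placed on GRCm38 by sequence. The V primers amplify segments unequally, so shares compare libraries better than segments. Barcodes limit but do not remove differences of 1 nt that arise in amplification.

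Read numbers per isotype were taken from the sequence identifiers, in which 9 numbers follow a name cut off at 50 characters. The first is Igha by that name, and the other 8 were read in alphabetical order, which is an assumption. The isotype of a sequence was the one with the largest of the 9 numbers. For the Ighd share of unique regions, a region counted as Ighd when any of its reads was Ighd.

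Mean shares per library were compared by exact two-sided signed-rank tests between the compartments of a mouse, which the labels pair by mouse number, by exact Mann-Whitney U tests between treatments and by exact permutation for the change of the gap. Benjamini-Hochberg adjustment was over the 8 measures of a comparison, or over 12 measures within libraries. V segments with at least 10 sequences in at least 3 libraries were tested with limma 3.58.1 (R 4.3.3) on log2 shares, adjusted over all segments tested. The prior was 0.5 sequences scaled to library size, and mouse was a block between compartments. The fit was also run on simulated counts drawn without clonal expansion, which cannot show how it performs where expanded clonotypes move the shares. The threshold was an adjusted p of 0.05. Named segments are those tested, the 10 with the highest mean share and those of the most frequent clonotype of a library. Further expanded clonotypes were named after their values were seen. Intervals are 95% Wilson intervals, and 3 sequences of the total bound a share of 0. Both cover counting error only. V mutations were counted here as mismatches to the GRCm38 V exon of the segment named, over at least 100 aligned nt. Sequences with more than 15% mismatches were given no value. Values were missing for 20.4% of Ighv1 sequences. V regions shorter than 100 nt had none, and these were 16.2% of PBS extravascular and 32.1% of PBS intravascular Ighv1 sequences (means of libraries). Python 3.11.15, pandas 2.3.3 and scipy 1.17.1 were used. The members and lists were chosen with earlier results of these data known. Alternatives were other counting units, filters, priors, read minimums and each mouse left out.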

Additional observations from a re-analysis of the deposited data

Results flagged for a closer look

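Of 32 groups of values examined by Dixon's test for an extreme library, 2 held one, where chance gives about 1.6 (1 in 20 groups). Both were V mutation frequencies of intravascular Ighv1 sequences. PBS mouse 5 had 0.292%, and the other 5 PBS mice lay between 0% and 0.0964%. UPEC mouse 1 had 0.494%, and the other 4 UPEC mice lay between 0.0133% and 0.107%. The cause was not tested.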

How the results depend on the processing

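Most results kept their direction and their side of the threshold under the alternatives, and the cause of the exceptions was not tested. Extravascular minus intravascular in PBS mice, the sequence share turned to 2.697 (reads), 0.879 (without Ighv11-2 and Ighv12-3) and 1.38 (at least 3 reads) percentage points, and ranged from -3.35 to 0.246 with a mouse left out. The clonotype share reached 15.3 points (p = 0.0312, exact) with near-identical junctions joined and 5.86 (p = 0.0411, exact) with no replicate block. With no replicate block the mutation difference of 0.328 points had p = 0.0411 (exact). N additions turned to 0.0429 nt with at least 100 nt of V region. In UPEC mice, CDR3 length turned to 0.219 amino acids and N additions to 0.542 nt with at least 100 nt, and N additions to 0.499 nt per sequence. UPEC minus PBS, extravascular, the clonotype share turned to -1.13 points and the unique clonotypes to -0.678 when joined, and N additions per sequence differed by 1.80 nt (p = 0.0173, exact). Intravascular, the sequence share turned to -0.300 (single V name) and -0.144 (at least 100 nt) points and CDR3 length to -0.114.

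V segments called between PBS compartments, 6 of 17, numbered 0 without the filter (13 at an unadjusted p below 0.05, limma), 0 by reads (5), 3 when centred, 1 with at least 100 nt (7.14%), 5 by clonotype, and 7 with a fixed prior or with no replicate block, and 0 to 5 with a mouse left out. Ighv1-58 kept a log2 difference of -2.48 to -1.84 with a mouse left out (limma adjusted p 0.0251 to 0.136), and was no longer called without PBS mouse 1 (0.0515), 3 (0.136), 4 (0.122) or 5 (0.0731). The log2 difference of Ighv1-48 turned to 0.15 by clonotype, 0.20 by reads and 0.13 when centred in PBS mice.

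Against other V segments, with at least 100 nt of V region, CDR3 length differed by -0.701 (PBS extravascular, p = 0.0312, exact), -0.415 (PBS intravascular) and -0.484 (UPEC intravascular). With this limit N additions differed by -0.118 nt in PBS extravascular and 0.0239 nt in PBS intravascular libraries. Ighj1 differed by -9.30 points in PBS intravascular libraries (p = 0.0625, exact). Without Ighv11-2 and Ighv12-3, N additions differed by -0.0419, Ighd by 14.0 points (p = 0.0625, exact) and Ighj1 by -5.17 points in PBS extravascular libraries.

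With a mouse left out, the ranges that crossed 0 or the threshold were these. For UPEC minus PBS, the extravascular ranges were -0.242 to 0.0123 for mutation, -0.348 to 3.80 for unique clonotypes, -1.01 to 0.12 (log2) for Ighv1-53 and 0 to 1 for called V segments. The intravascular ranges were -13.4 to -8.10 for Ighd, -1.17 to 2.16 for the clonotype share, -0.513 to 0.848 for the sequence share, -0.22 to 0.47 (log2) for Ighv1-58, -0.0303 to 0.0989 for mutation, -0.00183 to 0.331 for CDR3 length and -0.109 to 0.354 for N additions. Between UPEC compartments they were -0.00376 to 0.190 for mutation, -0.644 to 0.387 for N additions and -0.62 to 0.72 (log2) for Ighv1-53. Against other V segments they were 12.3 to 17.8 and 9.08 to 15.3 for Ighd and -21.9 to -16.1 and -9.01 to -7.00 for Ighj1 in PBS extravascular and intravascular libraries, -0.0518 to 0.1996, -0.0645 to 0.0885 and -0.0670 to 0.0492 for mutation in PBS extravascular, UPEC extravascular and UPEC intravascular libraries, -0.345 to 0.192 for CDR3 length in UPEC extravascular and -0.0150 to 0.174 for N additions in PBS extravascular libraries. The PBS ranges of Ighd and Ighj1 against other V segments did not cross 0. With 1 of 6 PBS mice left out, 5 pairs allow no p below 0.0625 (exact signed-rank test), so their loss of the threshold was fixed beforehand. With 28 to 206 Ighv1 sequences per library, shares of single segments rest on few sequences.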

Other observations

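In the extravascular library of UPEC mouse 1, which stood apart in other respects, 3 Ighv1-53 sequences of 3 clonotypes carried the same 6 mismatches to GRCm38 within 12 nt, and each of these clonotypes also held a sequence with 0 mismatches. The stretch with these mismatches was found in 0 other V exons of GRCm38. In this library all Ighv1 V regions had at least 100 nt. The sets were chosen after their values were seen, and no test was made.

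Among library and junction pairs of Ighv1, 53 of 1182 had more than 1 V name, and 48 of these involved Ighv1-48 or Ighv1S22. Ighv1S22 lies outside the family as defined here, and its mean share was 2.05% in PBS extravascular, 5.37% in PBS intravascular, 1.36% in UPEC extravascular and 5.83% in UPEC intravascular libraries.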
